A study of Mus musculus with 14 samples.

Results

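The genes described here are 10 glycolytic enzymes measured in microglia from a mouse glaucoma model: Hk2, Gpi1, Aldoa, Tpi1, Gapdh, Pgk1, Pgam1, Eno1, Pkm and Ldha. They were chosen by name, 1 gene for most steps from glucose to lactate, out of 35449 genes in the library files, and all 10 were among the 7605 genes with enough reads to be tested. RNA came from Fcrls+ CD11b+ Ly6c- sorted cells, with 1 retina per library, from mice aged 12 weeks. Their genotype was APOE E3/E3 (APOE3 below) or APOE E4/E4 (APOE4), alleles of the lipid carrier apolipoprotein E. Eyes had either microbeads injected, a procedure used to raise eye pressure, or a sham procedure. The groups were APOE3 sham (n = 4), APOE3 microbead (n = 3), APOE4 sham (n = 4) and APOE4 microbead (n = 3). Whether the retinas came from separate animals is not stated in the labels, so p-values measure the spread between these samples, which may be technical.

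Glycolysis splits glucose into pyruvate in the cytosol and yields ATP without oxygen. Its first steps spend ATP to make triose phosphates, its later steps return ATP and NADH, and lactate dehydrogenase turns pyruvate into lactate and restores NAD+. Microglia and other macrophages are known to lean on glycolysis when activated, and most of these genes are textbook targets of the hypoxia-inducible factor HIF-1.

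Libraries held 450981 to 727264 estimated reads, of which 38.6% to 65.3% fell on 12 genes at satellite repeats, leaving 226122 to 446728 reads for all others. The 10 enzymes are therefore counted thinly: Pgk1 had 13 to 80 reads per library, and Gapdh, the most read, 135 to 708. All 7 microglia marker genes used (P2ry12, Tmem119, Fcrls, Cx3cr1, Sall1, Itgam and Csf1r) had reads in every group. Fcrls stood at 221 ± 59.9, 220 ± 52.2, 104 ± 26.7 and 183 ± 52.3 CPM in APOE3 sham, APOE3 microbead, APOE4 sham and APOE4 microbead (SD, n = 4, 3, 4 and 3). CPM here is the read count scaled to library size with TMM factors, which compares 1 gene between libraries but not genes of different length.

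Marker genes moved with the groups. The summed microglia markers stood at 5139 ± 1366 CPM in APOE3 microbead, against 8962 ± 1389 CPM in APOE3 sham. In APOE4 they stood at 8382 ± 664 CPM in sham and 8543 ± 936 CPM in microbead. The 10 genes of the monocyte list summed to 5569, 6920 and 1335 CPM in APOE3 microbead 1, 2 and 3, and to 249.5 to 367.3 CPM in APOE3 sham. They summed to 507, 1358 and 424 CPM in APOE4 microbead and to 225 to 372 CPM in APOE4 sham. Most of that sum was Lyz2, a lysozyme that activated microglia can also make. The chemokine receptor Ccr2, a defining monocyte gene, stood at 83.7, 116 and 16.1 CPM in the 3 APOE3 microbead libraries and at 4.80 to 18.9 CPM in APOE3 sham. Ly6c2, the marker used to sort monocytes out, was at 0 to 6.63 CPM in every library. Rod photoreceptor genes (11 of 11 with reads in each group) were uneven within the sham groups, at 242, 353, 2000 and 1373 CPM in APOE3 sham 1 to 4. In bulk RNA, more cells of a type and more RNA per cell cannot be told apart.

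The first comparison asks how glycolytic genes of APOE3 microglia respond to microbeads. In APOE3 retinas 8 of the 10 enzymes rose after microbead injection: Gpi1, Aldoa, Tpi1, Pgk1, Pgam1, Eno1, Pkm and Ldha. The rise ran from 1.66-fold for Gpi1 to 3.09-fold for Pgk1. Gapdh, at 1.73-fold, missed the threshold, and Hk2, which starts the pathway, stood at 0.989-fold. Of all 7605 genes tested, 3.54% were called higher (edgeR quasi-likelihood test, Benjamini-Hochberg adjusted p under 0.05). The median log2 fold change was 0.95 over the 10 enzymes and -0.02 over all genes tested. Summed over the 10 enzymes, the level was 1381 ± 311 CPM in sham and 2571 ± 159 CPM in microbead.

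**Figure D1:**
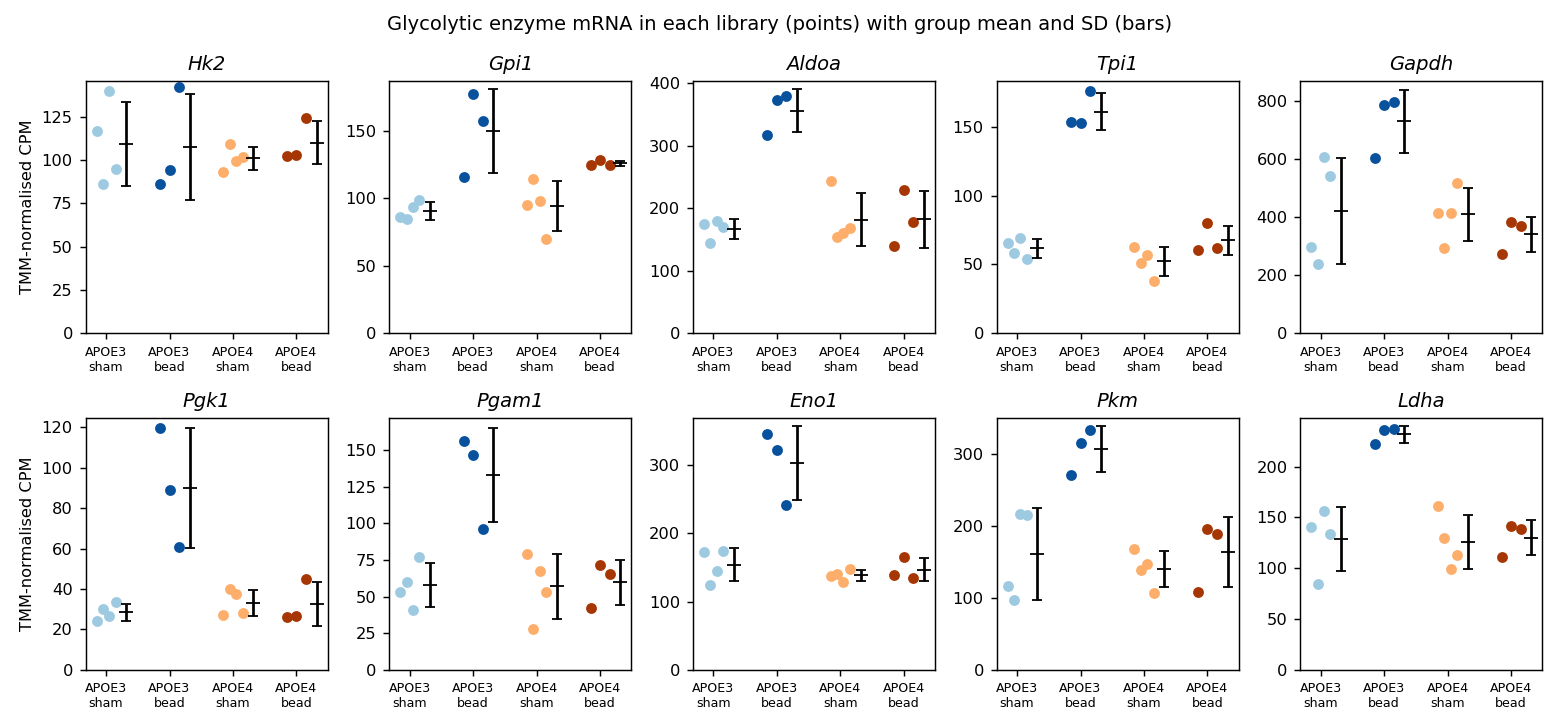
TMM-normalised CPM (vertical axis, from 0, on a scale of its own in each panel) of the 10 enzymes, with 1 point per library, in the 4 groups (bead: microbead injection). Bars are the mean and SD. The APOE3 microbead points lie above all APOE3 sham points in 8 panels, all except Hk2 and Gapdh.

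The microbead and sham libraries of APOE3 did not overlap for those same 8 enzymes, against 7.63% of all genes that were higher without overlap. Among the ATP-spending steps, Hk2, the inducible hexokinase that traps glucose as glucose 6-phosphate (ENSMUSG00000000628, chromosome 6, 82725025 to 82774454, GRCm38 here and below), was at 117, 86.1, 140 and 94.8 CPM in APOE3 sham. It was at 86.0, 94.7 and 143 CPM in microbead, so the groups overlapped fully (log2 fold change -0.02 ± 0.23, 95% interval -0.48 to 0.45, adjusted p = 0.996). The upper end of its interval in this fit lay below the estimates of the other 9 enzymes, an order that changed with a monocyte marker covariate, given below.

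Gpi1, which turns glucose 6-phosphate into fructose 6-phosphate (ENSMUSG00000036427, chromosome 7, 34201330 to 34230336), was at 85.9, 84.3, 93.5 and 98.4 CPM in sham. It was at 115, 177 and 157 CPM in microbead, and the lowest of these exceeded the highest sham library (0.73 ± 0.21, adjusted p = 0.039). Gpi1 was the weakest of the 8 and passed in 11 of 31 alternative settings.

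Aldoa, the aldolase that cleaves fructose 1,6-bisphosphate (ENSMUSG00000030695, chromosome 7, 126795234 to 126800751), was at 175, 144, 179 and 170 CPM in sham. It was at 317, 373 and 380 CPM in microbead, with the 3 libraries close together and well clear of sham (1.09 ± 0.21, adjusted p = 0.00124). Tpi1, which interconverts the 2 triose phosphates (ENSMUSG00000023456, chromosome 6, 124810586 to 124814296), was at 65.3, 58.0, 69.1 and 54.0 CPM in sham. In microbead it stood at 154, 153 and 176 CPM, each far above the highest sham library (1.39 ± 0.22, adjusted p = 0.000178). Its adjusted p was the smallest of the 10, and it passed in 28 of 31 alternative settings, the most of the 10.

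In the ATP-yielding steps, Pgk1, which makes the first ATP (ENSMUSG00000062070, chromosome X, 106187100 to 106203699), was at 24.0, 29.9, 26.4 and 33.6 CPM in sham. It was at 120, 89.1 and 60.6 CPM in microbead, so the libraries were all high but spread more widely, relative to their mean, than those of any other enzyme (1.63 ± 0.29, adjusted p = 0.000711). This was the largest fold of the 10 and rests on 13 to 28 reads per sham library. Pgam1, which moves the phosphate of phosphoglycerate (ENSMUSG00000011752, chromosome 19, 41911923 to 41918660), was at 53.2, 59.7, 40.7 and 76.8 CPM in sham. It was at 156, 147 and 96.3 CPM in microbead, with APOE3 microbead 3 the nearest to sham (1.19 ± 0.28, adjusted p = 0.00976).

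Eno1, the enolase that makes phosphoenolpyruvate (ENSMUSG00000063524, chromosome 4, 150236721 to 150248879), was at 173, 125, 144 and 174 CPM in sham. It was at 346, 323 and 242 CPM in microbead (0.97 ± 0.20, adjusted p = 0.00214). For Pgk1, Pgam1 and Eno1 the library with the least monocyte marker RNA, APOE3 microbead 3, was the lowest of the 3. It was the highest for Aldoa, Tpi1, Pkm, Ldha, Gapdh and Hk2, by little in some: for Ldha 237.1 against 236.1 CPM in APOE3 microbead 2. For Aldoa these libraries stood at 379.7 and 373 CPM, and for Gapdh at 798.7 and 788.4 CPM. With its near-identical copies added, as described below, Gapdh was instead lowest in APOE3 microbead 3 (1070 against 1208 and 1178 CPM).

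Pkm, the pyruvate kinase of most tissues (ENSMUSG00000032294, chromosome 9, 59656368 to 59679375), was at 117, 96.6, 217 and 216 CPM in sham. It was at 271, 316 and 333 CPM in microbead (0.92 ± 0.26, adjusted p = 0.0299). The 2 high sham libraries, APOE3 sham 3 and 4, were also those with the most rod marker RNA, whose part in the result was not tested. Ldha, which favours lactate from pyruvate (ENSMUSG00000063229, chromosome 7, 46841475 to 46855627), was at 141, 84.3, 156 and 133 CPM in sham. It was at 222, 236 and 237 CPM in microbead, the tightest group of the 8 (0.85 ± 0.22, adjusted p = 0.0159).

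The higher monocyte and lower microglia marker RNA described above moved with this result, and their part in it was not tested beyond the fits that follow. Without APOE3 microbead 1 and 2, which had the most of it, the 10 log2 fold changes lay between 0.39 and 1.52 with a median of 0.90, and 2 enzymes, Tpi1 and Aldoa, passed. That fit holds 1 APOE3 microbead library, assumed to vary like the other groups. With the marker sum as a covariate the folds lay between 0.13 and 1.27 and none of the 10 passed (all adjusted p = 0.998, 0 genes called of 7605). In that fit Hk2 no longer stood apart, at 0.69 ± 0.46. It lay above Pgam1 (0.13), Eno1 (0.23), Ldha (0.54), Gpi1 (0.64) and Pkm (0.65), and below Aldoa, Gapdh, Pgk1 and Tpi1. With only the 6 markers Ly6c2, Ccr2, Plac8, Chil3, Ms4a4c and Ifitm6 as the covariate, chosen after seeing the data, the folds lay between 0.22 and 1.43. There 1 enzyme, Tpi1, passed, and 32 of all 7605 genes did. The covariate and the group largely move together in these libraries.

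**Figure D2:**
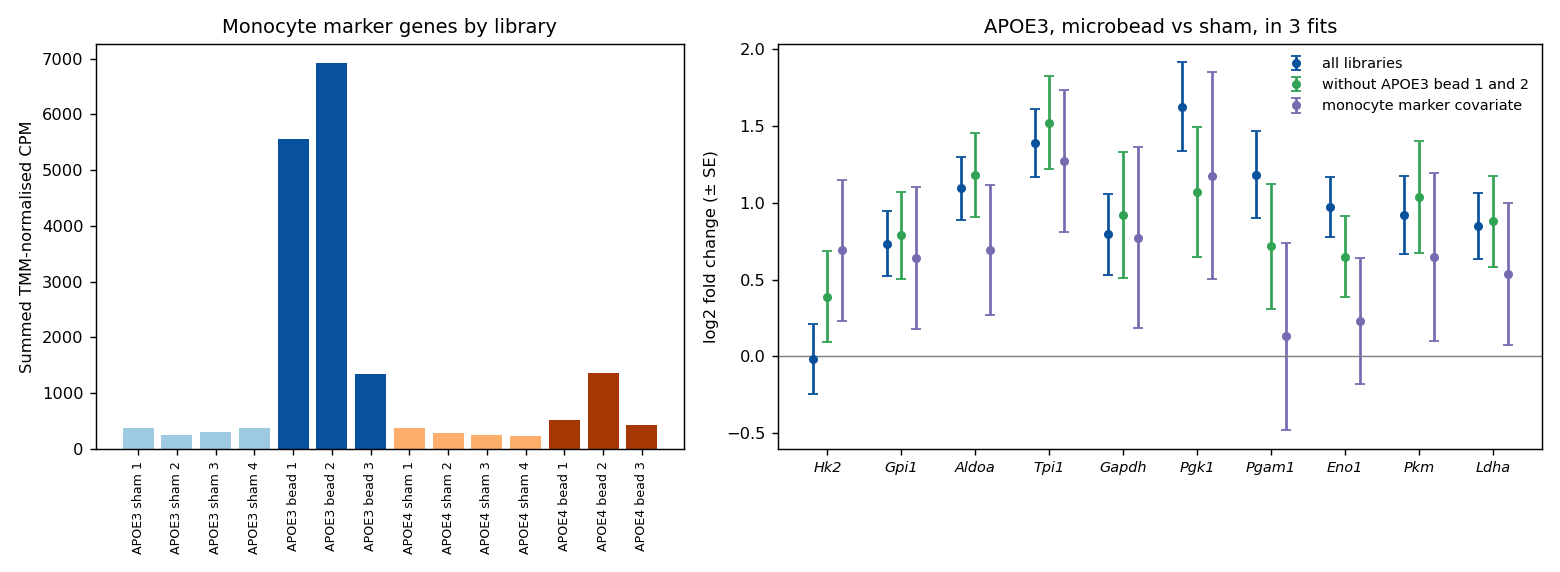
Left, summed TMM-normalised CPM of the 10 monocyte marker genes in each library (bead: microbead injection), highest in APOE3 microbead 1 and 2 at 5569 and 6920. Right, log2 fold change with SE of each enzyme in APOE3 microbead against sham in 3 fits: all libraries, without APOE3 microbead 1 and 2, and with the marker sum as a covariate. All estimates lie above 0 in the other two fits, with wider errors.

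Single libraries also mattered: without APOE3 microbead 2 alone 4 enzymes passed, and without APOE3 sham 2 alone 5 passed. With library totals in place of TMM 2 passed, with offsets for transcript length 4, with only the APOE3 libraries in the fit 5, and on log2(TPM + 1) or log2(TPM + 0.1) with limma 0, while DESeq2 called 8.

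Gapdh, which makes the first NADH (ENSMUSG00000057666, chromosome 6, 125161715 to 125166467), needs a separate account, since reads also went to its near-identical copies. It was at 297, 237, 608 and 543 CPM in APOE3 sham and at 604, 788 and 799 CPM in APOE3 microbead, so the highest sham library stood just above the lowest microbead library. The log2 fold change was 0.80 ± 0.26 (adjusted p = 0.0915). Of the reads given to Gapdh and 90 near-identical copies, 40.5% went to the copies. For each of the other 9 enzymes, copies took at most 1.38%.

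The copy with the most reads was Gm7336, a processed pseudogene (ENSMUSG00000078636, chromosome 7, 51746647 to 51747878). It aligns to the main Gapdh transcript over 1232 bases and differs at 3 positions, 0 of them in the 1002 coding bases, so a read from the coding part cannot be placed on 1 of the 2. Gm7336 was at 198, 255, 0 and 93.6 CPM in APOE3 sham 1 to 4, high where Gapdh was low and at 0 where Gapdh was highest. In APOE4 sham it was at 169, 222, 194 and 0 CPM, and the library listed at 0 was again the one with the highest Gapdh, 519 CPM.

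With all copies added to Gapdh, the APOE3 sham libraries stood at 596, 654, 789 and 714 CPM and the APOE3 microbead libraries at 1208, 1178 and 1070 CPM. The spread in APOE3 sham, as SD over mean, was 43.1% for Gapdh alone and 12.0% for the sum, and the groups no longer overlapped. The log2 fold change of the sum was 0.74 ± 0.17 (adjusted p = 0.0052), so 9 enzymes passed when every enzyme was counted with its copies. The sum assumes that the reads of all 90 copies belong to Gapdh. Only Gm7336 was compared with it base by base.

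**Figure D3:**
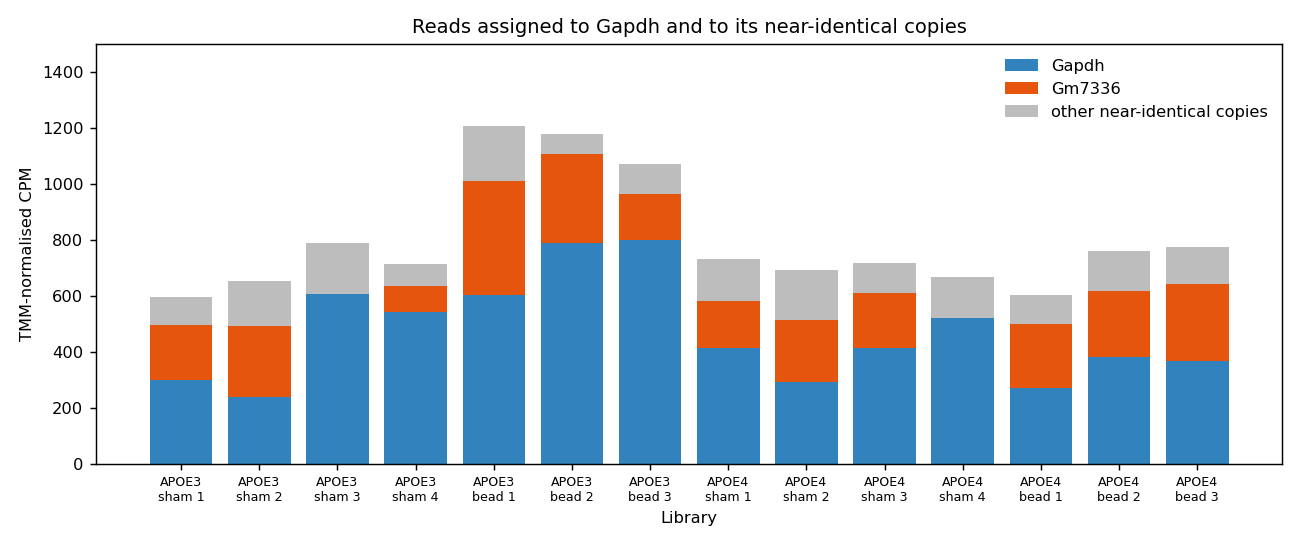
TMM-normalised CPM assigned in each library (horizontal axis, bead: microbead injection) to Gapdh, to its copy Gm7336 and to the other near-identical copies, stacked from 0. The total is 1070 to 1208 in the 3 APOE3 microbead libraries and 596 to 789 in all others, while the division between gene and copy varies from library to library.

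In APOE4 retinas none of the 10 enzymes changed after microbead injection by the same test, and 0 had even an unadjusted p under 0.05. Of all genes tested, 0.197% were called. The log2 fold changes ran from -0.26 for Gapdh to 0.41 for Gpi1, with a median of 0.08, against -0.00436 over all genes. With its copies added, Gapdh stood at 0.02 ± 0.17 (adjusted p = 0.998). Summed over the 10, the level was 1334 ± 117 CPM in sham and 1360 ± 209 CPM in microbead. DESeq2 also called 0 of the 10, as did each of the other alternatives.

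Gpi1 was the one enzyme whose APOE4 groups did not overlap, against 4.97% of all genes that were higher without overlap. It was at 95.1, 114, 97.8 and 69.8 CPM in APOE4 sham and at 125, 128 and 125 CPM in APOE4 microbead (0.41 ± 0.22, 95% interval -0.03 to 0.86, adjusted p = 0.807). Tpi1 was at 62.8, 51.3, 56.9 and 37.7 CPM in sham and at 60.3, 79.8 and 62.2 CPM in microbead, which overlapped (0.37 ± 0.24, 95% interval -0.12 to 0.86).

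Pgk1, with the largest fold in APOE3, was at 26.9, 39.8, 37.4 and 28.3 CPM in APOE4 sham and at 26.15, 26.60 and 44.96 CPM in APOE4 microbead. These groups overlapped, and the 95% interval of its log2 fold change, -0.68 to 0.64, lies below its APOE3 estimate. Aldoa was at 244, 154, 160 and 168 CPM in sham and at 139, 229 and 178 CPM in microbead (0.01 ± 0.21, 95% interval -0.43 to 0.44). For Eno1, Pgam1, Ldha and Pkm the estimates were 0.08, 0.09, 0.05 and 0.23, and their intervals ended at 0.50, 0.71, 0.51 and 0.77. Changes within these intervals were not detectable at this depth and number of libraries.

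**Figure D4:**
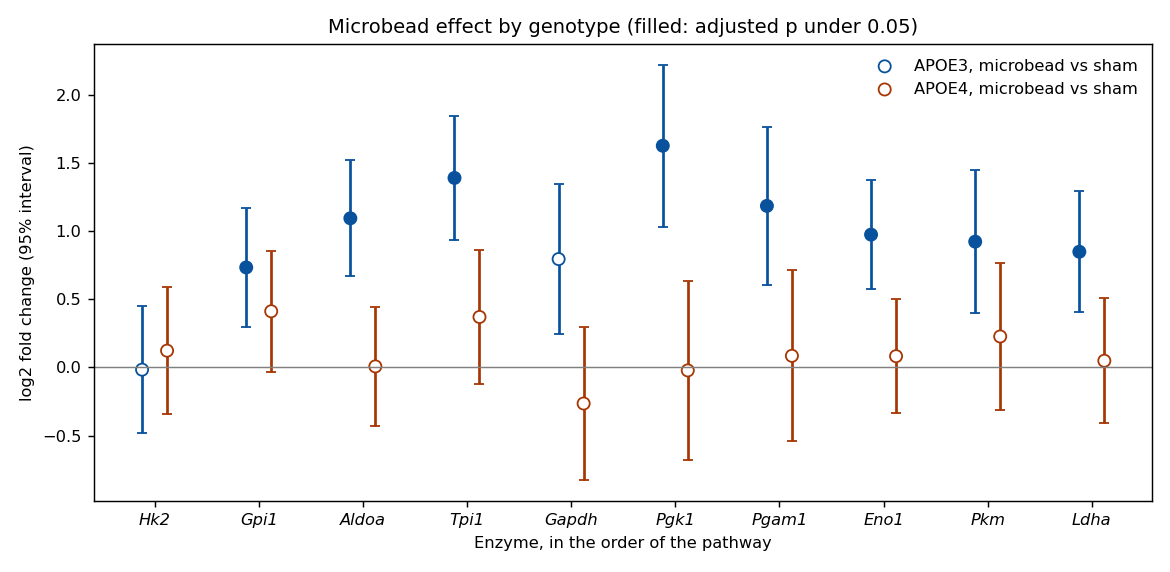
Log2 fold change of each enzyme, microbead against sham, with its 95% interval, in APOE3 (blue) and APOE4 (brown) retinas, in the order of the pathway from left to right. Filled points passed an adjusted p of 0.05. In APOE3 8 points are filled and in APOE4 none is.

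Whether the microbead response differed between genotypes was tested as an interaction. The estimate was below 0, a smaller response in APOE4, for 9 of 10 enzymes, with a median of -0.96 on the log2 scale, but 0 passed after adjustment (0.092% of all genes did). Before adjustment 7 had a p under 0.05. The smallest adjusted p was that of Pgk1 (-1.65 ± 0.44, adjusted p = 0.188), followed by Aldoa (-1.09 ± 0.30, adjusted p = 0.205). DESeq2, which kept 2310 genes for adjustment in this contrast and called 67 of them, called 2 enzymes, Pgk1 and Aldoa. Hk2 was the 1 enzyme above 0 (0.14 ± 0.32). The estimate for Gapdh was -1.06 ± 0.38 alone and -0.72 ± 0.24 with its copies added (adjusted p = 0.371 and 0.288).

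The genotypes were also compared directly. In sham retinas none of the 10 enzymes differed (0.0131% of all genes were called), all 10 overlapped (3.54% of all genes did not), and 0 had an unadjusted p under 0.05. The estimates ran from -0.23 for Tpi1 to 0.21 for Pgk1, and DESeq2 called 0 of the 10 as well. In microbead retinas 4 enzymes were lower in APOE4: Tpi1, Eno1, Pgk1 and Aldoa, where 0.355% of all genes were called lower. This comparison uses the same APOE3 microbead libraries as the first and is not independent of it.

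Tpi1 was at 67.5 ± 10.7 CPM in APOE4 microbead and 161 ± 13.4 CPM in APOE3 microbead (SD, n = 3 and 3; log2 difference -1.25 ± 0.24, adjusted p = 0.0078). Eno1 was at 139, 166 and 135 CPM against 346, 323 and 242 CPM (-1.05 ± 0.21, adjusted p = 0.0128). Pgk1 differed by -1.44 ± 0.32 (adjusted p = 0.0221) and Aldoa by -0.97 ± 0.22 (adjusted p = 0.0363). For 8 enzymes, all but Hk2 and Gpi1, every APOE4 microbead library lay below every APOE3 microbead library, as did 7.28% of all genes.

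For Gapdh, Pgam1, Ldha and Pkm the log2 differences were -1.10, -1.14, -0.83 and -0.90 and did not pass, with adjusted p of 0.106, 0.106, 0.117 and 0.166. With its copies added, Gapdh differed by -0.69 ± 0.18 (adjusted p = 0.0785). Gpi1 (-0.26 ± 0.23) and Hk2 (0.03 ± 0.24) stood near equal. Of the 4 calls, 0 were left without APOE4 microbead 1, 1 without APOE4 microbead 3, 1 without APOE3 microbead 2 and 2 without APOE3 microbead 1. None was left with either covariate of monocyte markers. In those 2 fits, and in the fit without both APOE3 microbead 1 and 2, all 10 estimates lay below 0. The medians were -0.86 without the 2 libraries, -0.66 with the marker sum and -0.85 with the 6 markers. With all libraries and no covariate the median was -1.01. Tpi1 stood at -1.37 without the 2 libraries. It stood at -1.17 with the marker sum and -1.28 with the 6 markers, with adjusted p of 0.999 and 0.207. DESeq2 called 8 of the 10 enzymes. It also called more genes in general: 109 of the 2310 it kept for adjustment in this contrast, 65 of them lower. The main fit called 44 of 7605.

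Without a covariate, Hk2 stood apart from the other enzymes across all 14 libraries as well. The correlation of each enzyme with the mean of the other 9, over log2 CPM, was 0.69 to 0.93 for 9 enzymes and 0.05 for Hk2. These libraries include the groups compared above, so the figures describe the shared pattern and carry no test. Among 6952 other genes, the 6 whose level most followed the enzymes' mean were Fth1 (r = 0.95), Cd74 and H2-Ab1 (both 0.93), Spp1 (0.93), Rap2b (0.91) and Ftl1 (0.91), over 14 libraries. Fth1 and Ftl1 encode the ferritin chains, Cd74 and H2-Ab1 belong to MHC class II antigen presentation, and Spp1 encodes osteopontin.

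Compared per length, as TPM, the order of levels over the 14 libraries was Gapdh (mean 107), Aldoa (45.2), Ldha (31.9), Eno1 (28.9), Pkm (24.4), Tpi1 (15.2), Pgam1 (15.1), Hk2 (14), Gpi1 (12.8) and Pgk1 (7.42). Gapdh exceeded Aldoa, Aldoa exceeded Ldha and Pkm exceeded Tpi1 in 14 of 14 libraries, even with the reads of Gapdh copies left out. Other neighbours were less firmly ordered: Ldha exceeded Eno1 in 10 libraries and Eno1 exceeded Pkm in 10, while Tpi1 exceeded Pgam1 in 7 libraries, Pgam1 exceeded Hk2 in 8 and Hk2 exceeded Gpi1 in 9. The TPM of Hk2 also rests on a short transcript, which held 96 of 881 Hk2 reads but 40.9% to 80.8% of Hk2 TPM.

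The members were the leading isozymes of most steps. Aldoa made up 97.9% ± 1.98 of aldolase TPM, Pgam1 97.6% ± 3.24 of phosphoglycerate mutase, Pkm 99.9% ± 0.417 of pyruvate kinase and Eno1 87.2% ± 7.70 of enolase (SD, n = 14). Hk2 made up 63.6% ± 10.8 of hexokinase TPM, the rest being mostly Hk3 (29.9% ± 9.61). The Hk2 share depends on the short transcript named above, which held 40.9% to 80.8% of Hk2 TPM. Ldha was 46.2% ± 9.62 of lactate dehydrogenase TPM, most of the rest being Ldhb, the subunit that favours pyruvate, and which of them was higher differed between libraries.

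The Ldha share of Ldha plus Ldhb TPM was 60.4%, 39.1%, 41.3% and 40.9% in APOE3 sham and 54.7%, 57.2% and 63.6% in APOE3 microbead. APOE3 sham 1 lay inside the microbead range, and the shares did not separate (difference 13.1 percentage points, exact two-sided permutation p = 0.171, adjusted p = 0.274 over 8 such tests). In APOE4 the shares were 47.9%, 40.3%, 39.42% and 31.01% in sham and 37.4%, 44.6% and 49.2% in microbead. Every APOE4 microbead share lay below every APOE3 microbead share (difference -14.8 percentage points). The exact two-sided permutation p was 0.1, the smallest that groups of this size allow, and the adjusted p was 0.2. Ldhb itself was at 148 ± 48.8 and 121 ± 24.3 CPM in APOE3 sham and microbead (log2 fold change -0.27 ± 0.24, adjusted p = 0.709).

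Pkm makes 2 forms by use of 1 of 2 alternative exons, M1 and M2, of which M2 is the form of proliferating and immune cells. Both exons have 167 bases and stand in the same place of the protein, and they are printed because they are what tells the forms apart: capitals mark the 64 positions at which they differ.
M1 exon, chr9:59675029-59675195, plus strand: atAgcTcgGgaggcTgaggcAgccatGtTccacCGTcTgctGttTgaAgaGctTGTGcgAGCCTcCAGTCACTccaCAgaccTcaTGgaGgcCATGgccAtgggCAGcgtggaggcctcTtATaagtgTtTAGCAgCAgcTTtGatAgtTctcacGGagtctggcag
M2 exon, chr9:59675568-59675734, plus strand: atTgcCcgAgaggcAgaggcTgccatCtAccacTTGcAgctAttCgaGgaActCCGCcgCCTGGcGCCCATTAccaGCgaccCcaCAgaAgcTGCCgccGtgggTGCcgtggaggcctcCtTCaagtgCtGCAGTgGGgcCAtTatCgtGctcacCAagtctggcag
The 2 are identical at 103 of 167 positions (61.7%).

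Over the 14 libraries 1490 estimated reads went to the main M2 transcript and 65.3 to the main M1 transcript, so that 95.8% of them were M2. The M2 share was 98.7% to 100% in APOE3 sham, 94.6% to 97.8% in APOE3 microbead, 89.1% to 97.2% in APOE4 sham and 90.1% to 92.5% in APOE4 microbead. APOE4 sham lay below APOE3 sham without overlap (difference -5.09 percentage points, exact two-sided permutation p = 0.0286, the smallest that 4 against 4 libraries allow). After adjustment over the 8 share tests it did not pass (adjusted p = 0.2). The M1 form had at most 14.98 estimated reads in a library, too few to resolve the share in any 1.

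Other genes of sugar metabolism were taken from lists, against a background of 5.15% of all genes called in either direction in APOE3. Of 5 other glycolytic isozymes tested 0 passed in any comparison. Pfkl, the main phosphofructokinase here, was at 57.5 ± 11.6 and 77.8 ± 24.1 CPM in APOE3 sham and microbead (0.45 ± 0.29, adjusted p = 0.52), and Hk3 at 61.5 ± 14.3 and 51.0 ± 9.31 CPM (-0.28 ± 0.33, adjusted p = 0.811). Hk1 (20 and 23 reads) and Pfkp (16 and 57 reads over APOE3 sham and microbead) had too few reads to be tested.

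Among 8 transporters tested, 1 rose and 1 fell in APOE3. Slc2a6, a hexose transporter of lysosomes in macrophages, rose from 28.9 ± 7.87 to 83.5 ± 6.77 CPM (1.54 ± 0.30, adjusted p = 0.00139). Slc2a5, the fructose transporter typical of resting microglia, fell from 217 ± 19.9 to 65.4 ± 41.9 CPM (-1.72 ± 0.27, adjusted p = 0.000178). The lower microglia and higher monocyte marker RNA of APOE3 microbead moved with these results and with those of Mif, B2m and Rplp0 below. Its part in them was not tested beyond the fits above. Slc2a1, the widespread glucose transporter, was at 14.1 ± 3.48 and 17.2 ± 1.15 CPM (0.27 ± 0.50, adjusted p = 0.9). In APOE4 and in the interaction 0 of the 8 passed.

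Of 12 regulators of glycolysis tested 0 passed in APOE3, including Hif1a, the oxygen-regulated subunit of HIF-1, at 61.0 ± 11.2 and 62.7 ± 21.8 CPM (0.08 ± 0.30, adjusted p = 0.964). HIF-1 is controlled mainly at the protein level, which RNA does not report. Of 7 hypoxia-inducible genes outside glycolysis 1 rose, the cytokine Mif, from 24.8 ± 9.46 to 57.0 ± 15.4 CPM (1.19 ± 0.34, adjusted p = 0.0329). Of 6 genes of the pentose phosphate pathway, 23 of pyruvate entry and the TCA cycle, and 4 of gluconeogenesis and glycogen tested, 0 passed in APOE3. The medians of these 3 lists were 0.39, 0.16 and -0.17 on the log2 scale.

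2 of the enzymes, Gapdh and Pgk1, are in common use as reference genes for normalising RNA measurements. Of 13 such genes tested, 3 rose in APOE3, where 3.54% of all genes tested were called higher. They were Pgk1, already counted among the enzymes above, the antigen-presentation subunit B2m (0.79 ± 0.18, adjusted p = 0.00544) and the ribosomal protein Rplp0 (0.98 ± 0.20, adjusted p = 0.00214). Actb and Ppia did not pass (0.31 ± 0.18, adjusted p = 0.466, and 0.25 ± 0.19, adjusted p = 0.632).

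Promoter sequence was examined because the enzymes moved together and HIF-1 binds the core letters ACGTG or GCGTG. Windows of 250 bases before each gene's RefSeq start (GRCm38.p6) were searched on both strands, counting overlapping matches once. ACGTG was found in 5 of the 10 windows, against 16.6% of 32851 promoter windows of all genes. ACGTG or GCGTG was found in 7 of 10, against 38.6%. The windows of all genes were not matched to the enzymes for base composition or expression, so enrichment was not tested. Those with ACGTG were Hk2, Aldoa, Pgk1, Pgam1 and Ldha. The RefSeq start lay 35 bases for Ldha and 52 to 244 bases for Pgam1, Tpi1, Pkm and Eno1 from that of the gene's most-read coding transcript. Windows are printed for Pgk1, with the largest fold, Ldha, with the most ACGTG matches, Aldoa, and Hk2, whose level did not pass the test. Capitals mark the matches, and CACGT is ACGTG read on the other strand.
Pgk1, chrX:106186850-106187099, plus strand: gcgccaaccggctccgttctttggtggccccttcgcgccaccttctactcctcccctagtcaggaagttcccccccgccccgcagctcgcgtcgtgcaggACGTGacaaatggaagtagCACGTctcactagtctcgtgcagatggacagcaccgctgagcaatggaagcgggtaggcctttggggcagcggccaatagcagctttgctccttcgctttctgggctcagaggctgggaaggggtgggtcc
Ldha, chr7:46845554-46845803, plus strand: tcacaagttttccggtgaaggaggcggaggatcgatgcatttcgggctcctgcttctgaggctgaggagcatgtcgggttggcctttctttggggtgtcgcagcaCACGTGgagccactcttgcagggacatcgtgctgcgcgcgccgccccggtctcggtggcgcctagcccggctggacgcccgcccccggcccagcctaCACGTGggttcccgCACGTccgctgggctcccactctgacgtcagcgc
Aldoa, chr7:126799255-126799504, minus strand: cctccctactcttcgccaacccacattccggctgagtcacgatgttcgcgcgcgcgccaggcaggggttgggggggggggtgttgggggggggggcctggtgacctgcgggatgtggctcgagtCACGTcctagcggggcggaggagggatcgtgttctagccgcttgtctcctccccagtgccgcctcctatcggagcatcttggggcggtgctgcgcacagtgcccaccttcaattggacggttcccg
Hk2, chr6:82774455-82774704, minus strand: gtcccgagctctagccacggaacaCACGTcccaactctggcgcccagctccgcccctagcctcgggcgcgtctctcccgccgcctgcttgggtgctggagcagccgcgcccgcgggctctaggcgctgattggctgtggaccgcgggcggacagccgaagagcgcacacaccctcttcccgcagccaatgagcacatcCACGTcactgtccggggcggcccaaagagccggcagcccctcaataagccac
Pgk1 holds 2 matches, 150 and 131 bases before the start, and Ldha 3, of which 2 are the palindrome CACGTG. Aldoa holds 1, at 126 bases. Hk2 also holds 2, at 226 and 52 bases, so the letters were present in an enzyme that did not pass as well as in some that did, and Tpi1, Pkm and Gpi1, which rose, held none in these windows. A match describes the letters and does not show binding.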

How the data were processed

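RNA-seq libraries of sorted retinal microglia were compared in 14 samples. The authors' quantification used Salmon 1.4.0 and mm10, with R 4.0.3 and DESeq2 1.30.1 afterwards, per the submitters' processing notes. The deposited library files hold estimated counts per transcript with effective lengths (a length in bases), and the deposited series table holds TPM. Counts were summed per gene (GENCODE M21, GRCm38; 115945 of 116945 transcripts assigned) and rounded. Each library matched its own TPM column for 99.2% to 99.4% of genes and any other for at most 2.11%.

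Genes were filtered with filterByExpr (minimum count 10, minimum total 15) and tested with edgeR 4.0.16 (R 4.3.3), robust quasi-likelihood with TMM, 1 model with 4 group means, common biological coefficient of variation 0.275. 5 contrasts were tested two-sided, with Benjamini-Hochberg adjustment over 7605 genes. SE derives from the F statistic, and intervals are at 95%. The code was checked on simulated data. Near-identical copies were found with blastn 2.17.0 (at least 95% identity). Promoter sequences are RefSeq's (GRCm38.p6). Alternatives used DESeq2 1.42.0 and limma 3.58.1.

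The members, lists, tests and alternatives were chosen with earlier results of these data known. Named are all members, list genes called in any comparison (up to 4 per list and comparison), Hif1a, Slc2a1, Pfkp, Pfkl, Hk1 and Hk3, and the 6 genes most like the members in pattern; Ldhb, Actb, Ppia, Gm7336 and the monocyte markers were named after their values were seen. 1 gene of the microglia marker list is not reported here.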

Additional observations from a re-analysis of the deposited data

Results flagged for a closer look

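Aldoa in APOE4 sham 1 stood at 244 CPM, far from the other 3 libraries of its group, the nearest of which was at 168 CPM. Its gap was 0.846 of the group's range, above Dixon's 95% critical value for 4 samples. Chance marks about 1 in 20 such groups, and 20 groups of 4 were looked at. APOE4 sham 1 also had the most rod marker RNA of its group, 1653 CPM against 354.4 to 576.3 CPM, whose part was not tested.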

How the results depend on the processing

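Tests here have 3 or 4 libraries a group and 13 to 80 reads per library for Pgk1, so small changes could not be detected. For APOE3 microbead against sham, 8 enzymes passed. The count was 2 with library totals, 4 with length offsets, 0 on log2(TPM + 1), 0 on log2(TPM + 0.1), 5 with only the libraries compared, 2 without both APOE3 microbead 1 and 2, 0 with the monocyte marker covariate and 1 with the covariate of 6 markers, the last chosen after seeing the data. Leaving out 1 library gave 4 to 8. For APOE4 against APOE3 in microbead, 4 passed. The count was 8 with DESeq2, 0 with library totals, 1 with length offsets, 0 on log2(TPM + 1), 0 on log2(TPM + 0.1), 1 with only the libraries compared, 0 without both APOE3 microbead 1 and 2, and 0 with either covariate, with all 10 estimates below 0 in the last 3 fits. Leaving out 1 library gave 0 to 5. For the interaction DESeq2 called 2 and every other alternative 0. Over all genes, DESeq2 called 109 of 2310 between the microbead groups and 67 of 2310 in the interaction. In the remaining comparisons every alternative gave 0. With the replicate number as a block, 7 enzymes passed in APOE3 and 2 in the microbead genotype comparison. Samples with the same number did not deviate together (correlations -0.116 to 0.0874, 0 of 19 pairs over 0.1), and 4 of 14 libraries correlated best with their own number. The numbers thus gave no sign of pairing, but a check on so few, thinly read libraries cannot exclude it. Scaling by library totals shifted the all-gene median to -0.23 on the log2 scale in APOE4 microbead against sham and to 0.16 between the sham groups, and log2(TPM + 1) shifted these to -0.32 and 0.22. Over all genes, 392 passed in APOE3, against 149 with library totals, 159 higher and 43 lower with length offsets, 227 with only the libraries compared, 37 without both APOE3 microbead 1 and 2, and 33 and 13 on the 2 TPM scales. Of these calls 68.6% were higher, and 78.7% with length offsets. No value past the threshold changed sign. Of all enzyme estimates over the alternatives, 7 of 310 in APOE3 (all of them Hk2), 42 of 310 in APOE4, 3 of 300 in the interaction, 35 of 310 between sham groups and 7 of 310 between microbead groups changed sign. The cause of these shifts was not tested.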
